A study of Mus musculus with 8 samples.

Results

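Striated muscle is switched on and off by calcium through 2 protein families on the actin filament, the troponins and the tropomyosins, and 10 of their genes are described here. They are the troponin T genes Tnnt1, Tnnt2 and Tnnt3, the troponin I genes Tnni1 and Tnni2, the troponin C genes Tnnc1 and Tnnc2, and the tropomyosin genes Tpm1, Tpm2 and Tpm3. Members were found by gene symbol in the annotation of the array, which gave 10 of 19938 genes. A probe set, a group of probes summarised into 1 value that can cover several transcripts, was used where its annotation held a single symbol. For the 10 genes 13 probe sets met this. Each gene but Tpm3 had 1, and Tpm3 had 4, of which the brightest over the 8 arrays was used.

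Tropomyosin is a coiled coil that lies along actin and covers the sites to which myosin binds. Troponin T ties the complex to tropomyosin, troponin I holds actin in the blocked state, and troponin C binds calcium and releases that block. Fast fibres use the products of Tnnt3, Tnni2 and Tnnc2, slow fibres those of Tnnt1, Tnni1 and Tnnc1, while the heart shares Tnnc1 and has its own troponin T, Tnnt2, which developing skeletal muscle also makes. Tpm1 encodes the alpha tropomyosin of fast fibres and heart, Tpm2 the beta form, and Tpm3 the slow-fibre form together with short forms made in brain and other cells outside muscle. In the RefSeq gene table, Tnni2 and Tnnt3 lie on chromosome 7 with 1 protein-coding gene, Lsp1, between them, and Tnni1 and Tnnt2 lie on chromosome 1 with 1 such gene, Lad1, between them. Of the other members, Tnnt1 is on chromosome 7, Tnnc1 on 14, Tnnc2 on 2, Tpm1 on 9, Tpm2 on 4 and Tpm3 on 3. The tibialis anterior (TA), the muscle sampled, is a fast muscle of the lower leg.

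RNA from SCA17 mice that carry the knock-in allele (KI) and from wild-type mice (WT), all aged 3 months, was hybridised to Affymetrix Mouse Gene 1.0 ST arrays in 4 groups of 2. These were KI muscle (replicates 94 and 97), WT muscle (95 and 96), KI cerebellum (94 and 97) and WT cerebellum (95 and 96). SCA17 is an ataxia caused by an expanded glutamine tract in TBP, the TATA-binding protein of the transcription machinery, and the comparison asked which transcripts differ when the mutant allele is present. The repeat length, the strain, the number of mutant alleles and the sex are not given in the labels used here. The design text speaks of 3 mice per genotype, of which 2 arrays per group were analysed here, and no label says that they came from separate animals, so the p values measure the spread between these arrays, which may be technical.

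Values are log2 expression, so a difference of 1 is a 2-fold change, and probe sets differ in brightness, so levels are compared between arrays and not between genes. Array medians lay between 5.40 and 5.51, and the correlation over probe sets within a group was between 0.977 and 0.989. Both tissues carried their defining markers. All 9 skeletal fibre markers were called higher in muscle, and 6 of 7 granule cell and 5 of 5 Purkinje cell markers were called lower there. Genes whose level reached the 40th percentile of the array on 2 or more of the 4 arrays of a tissue were tested there. All 10 members met this in muscle and 9 did in the cerebellum. The call rule was a Benjamini-Hochberg adjusted p under 0.05 in limma, over every gene tested in that comparison.

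Sequences around the transcription starts are shown because the mutated protein binds the TATA element and because several members moved in the same direction in KI muscle. RefSeq promoter windows (GRCm38.p6, 250 bases before to 50 after a start) were found for 8 of the 10 members, 11 windows in all. The members without a window were Tnnt3 and Tnni2, the latter being the member called in muscle. The 4 windows shown are those of Tnnc2 (chr2:164779685-164779984, minus strand) and Tpm2 (chr4:43523505-43523804, minus strand), both lower on each KI muscle array, and of Tnnc1 (chr14:31208062-31208361, plus strand) and Tnnt1 (chr7:4515926-4516225, minus strand), which were not. They run 5′ to 3′ on the strand of the gene, and capitals mark 3 motifs on either strand, the E-box (CANNTG), the TATA letters (TATAAA) and the MCAT core (CATTCC).
Tnnc2: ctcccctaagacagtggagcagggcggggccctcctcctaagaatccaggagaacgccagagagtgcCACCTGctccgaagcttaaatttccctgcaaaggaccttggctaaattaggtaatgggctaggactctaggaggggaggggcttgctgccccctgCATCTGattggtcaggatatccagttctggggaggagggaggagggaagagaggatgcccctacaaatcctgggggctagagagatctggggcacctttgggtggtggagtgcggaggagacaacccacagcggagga
Tpm2: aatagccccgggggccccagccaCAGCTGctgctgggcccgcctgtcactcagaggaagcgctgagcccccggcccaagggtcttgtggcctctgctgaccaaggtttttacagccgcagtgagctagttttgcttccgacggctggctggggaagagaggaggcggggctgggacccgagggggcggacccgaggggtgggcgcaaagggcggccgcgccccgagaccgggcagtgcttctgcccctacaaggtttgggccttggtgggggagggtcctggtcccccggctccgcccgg
Tnnc1: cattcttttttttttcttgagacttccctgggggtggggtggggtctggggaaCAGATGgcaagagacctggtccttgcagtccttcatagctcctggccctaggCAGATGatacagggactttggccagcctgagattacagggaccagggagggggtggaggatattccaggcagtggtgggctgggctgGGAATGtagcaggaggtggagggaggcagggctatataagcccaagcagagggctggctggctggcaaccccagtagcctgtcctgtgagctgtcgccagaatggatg
Tnnt1: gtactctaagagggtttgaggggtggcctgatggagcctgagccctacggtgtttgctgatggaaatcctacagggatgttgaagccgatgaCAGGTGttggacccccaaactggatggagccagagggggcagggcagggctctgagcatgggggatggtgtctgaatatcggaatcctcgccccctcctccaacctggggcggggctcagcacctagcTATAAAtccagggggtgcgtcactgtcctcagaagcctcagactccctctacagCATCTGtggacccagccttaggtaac

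The E-box has the same pattern on both strands and is the element bound by MyoD and its relatives. It was found in all 11 windows of the members and in 72.3% of the 32851 promoter windows of the table. Each of the Tnnc2, Tnnc1 and Tnnt1 windows held 2 of them and the Tpm2 window held 1. The TATA letters were found in 1 of the 11 windows, that of Tnnt1, where they begin 30 bases before the start, and in 13.6% of all windows on either strand. At 20 to 40 bases before the start on the strand of the gene they were found in 1.99% of all windows. Only the exact letters TATAAA were counted, so near matches were left unmarked, such as tatataa in the printed Tnnc1 window. The MCAT core, bound by TEAD factors, was found in windows of Tnnt2, Tnnc1 and Tpm1 and in 14.7% of all windows. Tnnt2 and Tpm1, whose windows are not printed, also lay lower on both KI muscle arrays. The printed windows were picked by such values, so a contrast of motifs among them is no result. No window of a member matched the MEF2 box or the CArG box, which 3.19% and 1.63% of all windows held. The motifs searched can overlap one another, and the TATA letters can lie within a MEF2 box. These matches describe letters in a window and are not evidence of binding.

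The members differed in their contrast between the tissues. Tnnt3, Tnni2, Tnnc2, Tpm1 and Tpm2 were between 18.8-fold and 79.9-fold higher in muscle than in the cerebellum. Tnni1, Tnnc1 and Tnnt2 were less than 2-fold higher, and Tpm3, by its brightest probe set, was lower. Tnnt3, fast troponin T (probe set 10559221), differed most, at 11.53 to 12.10 on the muscle arrays against 5.11 to 5.94 on the cerebellum arrays (log2 difference 6.32 ± 0.14, SE; adjusted p = 3.55e-10, limma). The next were Tpm2 (5.57 ± 0.10), Tnnc2 (5.52 ± 0.14), Tnni2 (4.68 ± 0.09) and Tpm1 (4.24 ± 0.10). The call for tissue also asked for a 2-fold change, and these 5 members were called higher and 0 lower. Of 14708 genes, 26.0% were called, 11.0% higher and 15.0% lower.

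**Figure D1:**
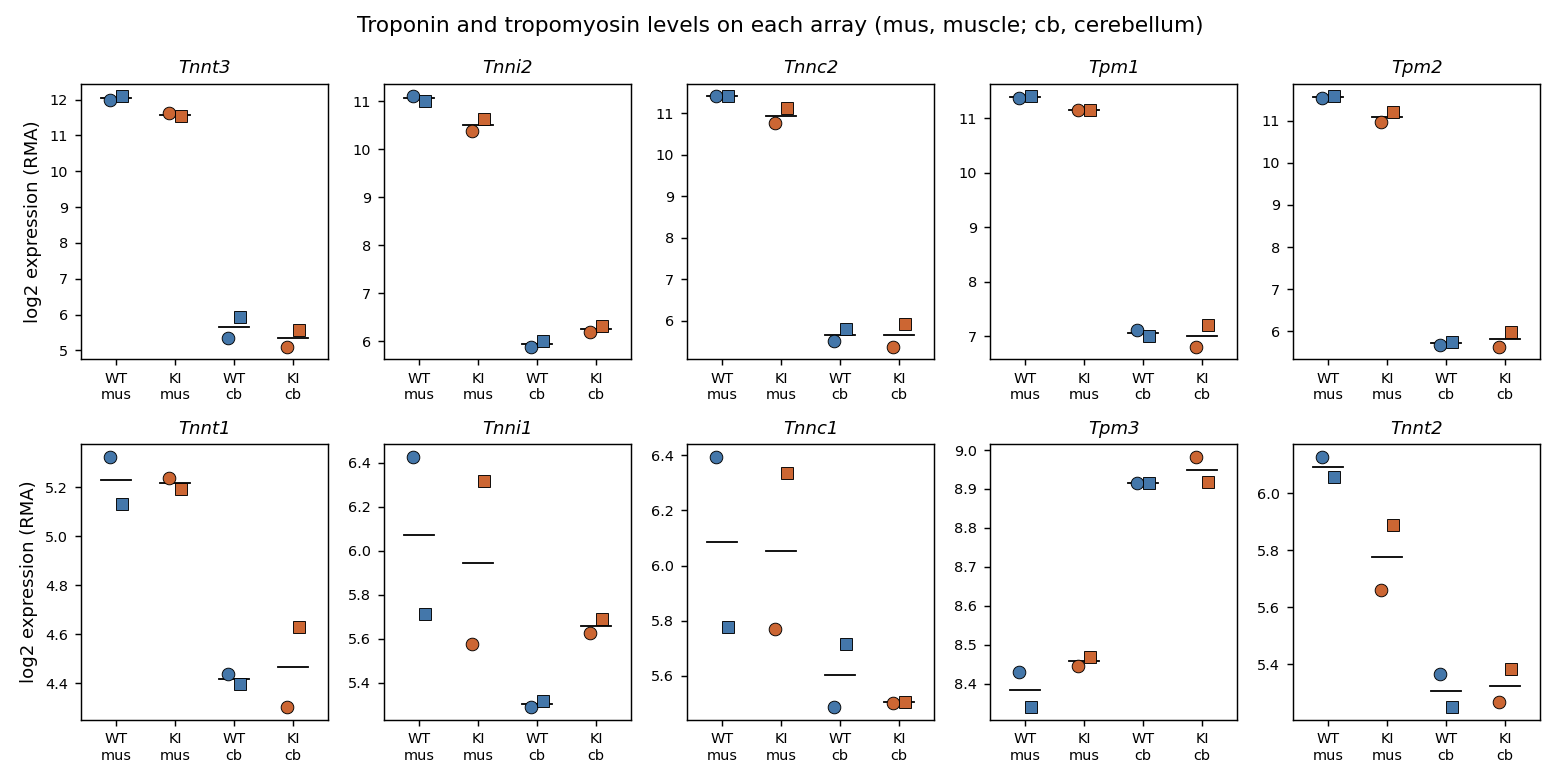
Log2 expression of the 10 genes on each of the 8 arrays, 1 panel per gene with its own axis; circles are replicate 94 or 95, squares replicate 97 or 96, and bars are group means (WT blue, KI orange). Tnnt3, Tnni2, Tnnc2, Tpm1 and Tpm2 sit above 10 in muscle and below 8 in the cerebellum, and both KI muscle arrays lie below both WT muscle arrays in each of them.

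Among the other members, Tnnt2 was 1.54-fold, Tnni1 1.44-fold and Tnnc1 1.43-fold higher in muscle, all with an adjusted p under the threshold (9.50e-05, 0.0253 and 0.0146 in limma) but under the fold asked for. Tnnt1 was at 5.13 to 5.33 in muscle and at 4.30 to 4.63 in the cerebellum, below the 40th percentile on all 4 arrays there, so no fold is given for it. The tissues overlapped in Tnni1, where KI muscle replicate 94 was at 5.58, below both KI cerebellum arrays (5.63 and 5.69). In 9 members both muscle groups had higher means than both cerebellum groups. In Tpm3 the order was the reverse by its brightest probe set, but not by its next brightest, as given below. Within a tissue, KI and WT differed by a called amount in Tnni2 in muscle and in no other member.

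In muscle the fast troponin genes, Tpm1 and Tpm2 lay lower on the KI arrays. Tnni2, fast troponin I (probe set 10559200), fell 1.47-fold and was the member that passed. Tnnt3, Tnnc2 and Tpm2 had differences of nearly the same size and did not pass. In 6 of the 10 members the KI arrays were both below the WT arrays, as in 19.9% of the 13933 genes tested, and in 1 both were above, as in 30.3% of genes. The count called was 0 higher and 1 lower, against 2.66% and 0.890% of all genes tested, 3.55% together. At an unadjusted p under 0.05 there were 5 members, all with a negative difference, against 20.3% of genes in either direction and 6.69% with a negative one. The median difference of the members was -0.28, and that of all genes tested was 0.03.

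Tnni2 was at 10.39 and 10.63 on the KI arrays and at 11.11 and 11.01 on the WT arrays. Every KI array was below every WT array, and the WT arrays lay closer together. The log2 difference was -0.55 ± 0.12 (SE, 95% interval -0.82 to -0.28; adjusted p = 0.0409, limma). That call was held in 8 of 20 alternative analyses, 1 of them with a looser threshold, and was lost without any 1 of the 8 arrays, with the adjusted p between 0.0596 and 0.192, while the difference itself stayed between -0.67 and -0.44.

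Tnnt3 was at 11.63 and 11.53 on the KI arrays and at 12.00 and 12.10 on the WT arrays, so the groups did not overlap. Its difference was -0.47 ± 0.20 (SE, interval -0.92 to -0.01; adjusted p = 0.237, limma). The spread of its cerebellum arrays (SD 0.33 and 0.41, n = 2) was larger than that of its muscle arrays (SD 0.07 in each genotype, n = 2), and the fit pools the groups. Tnnt3 was not called in any of 20 alternatives, among them the fit of the muscle arrays alone (lowest adjusted p 0.121, limma). Tnnc2, the fast calcium sensor, was at 10.76 and 11.13 in KI and at 11.41 and 11.40 in WT muscle, with replicate 94 the lowest. Its difference was -0.46 ± 0.20 (SE, interval -0.90 to -0.02; adjusted p = 0.226, limma), and it was -0.28 without KI muscle replicate 94 and -0.65 without KI muscle replicate 97.

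Of the tropomyosins, Tpm2 was at 10.98 and 11.20 on the KI arrays against 11.54 and 11.58 on the WT arrays. Its difference of -0.47 ± 0.14 (SE, interval -0.78 to -0.16) had an adjusted p of 0.0984 in limma. Tpm1 was at 11.15 and 11.16 in KI and at 11.37 and 11.41 in WT muscle, so the groups did not overlap. Its difference of -0.24 ± 0.14 (SE, interval -0.54 to 0.07; adjusted p = 0.369, limma) had an interval that included 0. Tnnt2, cardiac troponin T, was at 5.66 and 5.89 in KI and 6.13 and 6.06 in WT muscle, and KI lay below WT here too (-0.32 ± 0.12, SE, interval -0.58 to -0.05; adjusted p = 0.180, limma; -0.20 without KI muscle replicate 94).

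**Figure D2:**
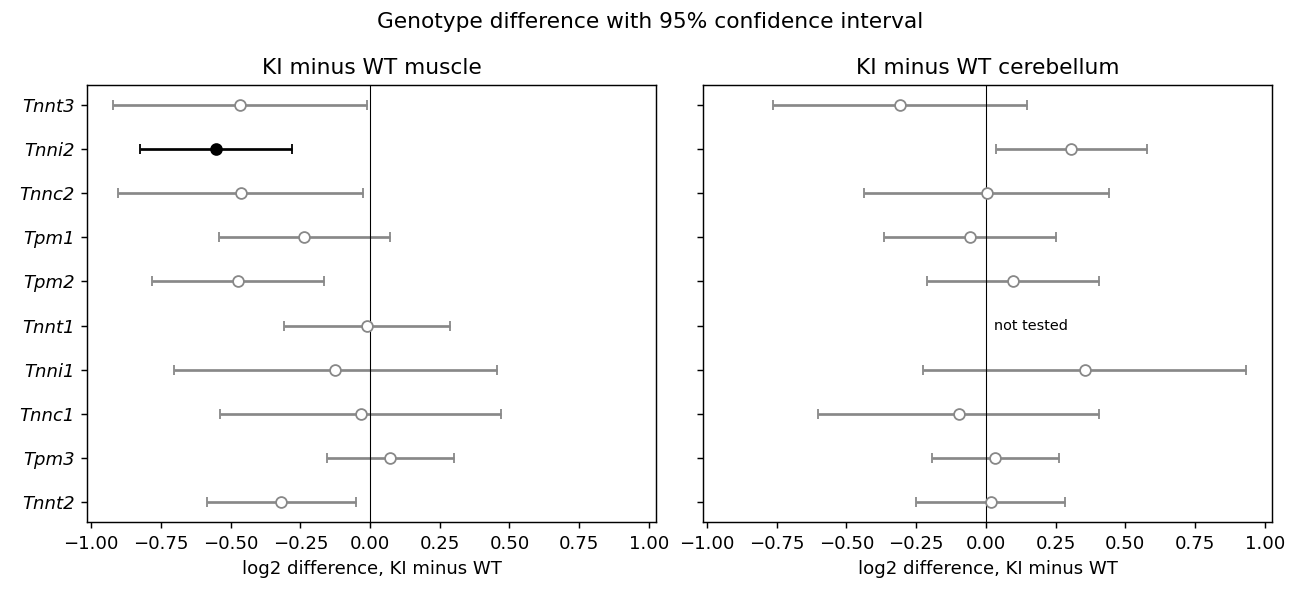
Log2 difference KI minus WT for each gene in muscle (left) and cerebellum (right); points are limma estimates, bars are 95% confidence intervals, and the filled point is the member called. In muscle the intervals of Tnnt3, Tnni2, Tnnc2, Tpm2 and Tnnt2 lie below 0 and Tnni2 is called at -0.55, while Tnnt1 was not tested in the cerebellum.

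The slow troponins showed no such split by genotype, but their signals were low. Among all probe sets of a muscle array, Tnnt1 lay at percentile 43.0 to 46.4, just above the filter. Tnni1 lay at 53.0 to 69.6 and Tnnc1 at 57.1 to 69.0, while Tnnt3, Tnni2 and Tnnc2 lay at 98.5 or above. Tnnt2, lower on both KI arrays, had a low signal too, at 54.8 to 64.4. Whether low signal hid a difference was not tested. Tnni1, slow troponin I, was at 5.58 and 6.31 on the KI arrays and at 6.43 and 5.71 on the WT arrays. Tnnc1, slow and cardiac troponin C, was at 5.77 and 6.34 in KI and at 6.39 and 5.78 in WT muscle. In both genes KI replicate 97 and WT replicate 95 were high and the other array of each genotype was low, so the genotypes overlapped and the spread within a genotype (SD 0.52 and 0.50 for Tnni1, 0.40 and 0.44 for Tnnc1, n = 2) exceeded the difference between them. The differences were -0.12 ± 0.26 for Tnni1 (SE, interval -0.70 to 0.46; adjusted p = 0.837, limma) and -0.03 ± 0.22 for Tnnc1 (SE, interval -0.54 to 0.47; adjusted p = 0.958, limma). The Tnni1 interval includes the differences of Tnnt3, Tnni2, Tnnc2, Tpm1 and Tpm2. That of Tnnc1 includes those of Tnnt3, Tnnc2, Tpm1 and Tpm2 but not that of Tnni2 (-0.55). Tnnt1, slow troponin T, was at 5.24 and 5.20 in KI and 5.33 and 5.13 in WT muscle and did not take part in the split between arrays (-0.01 ± 0.13, SE, interval -0.31 to 0.29; adjusted p = 0.975, limma).

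The order of arrays seen in Tnni1 and Tnnc1, with replicates 95 and 97 above 94 and 96, was read from the values and is given as a description. Of 13933 genes tested in muscle 12.6% had that order, and 0.402%, or 56 genes, had it with a gap of at least 0.3. Slow-fibre genes outside the family did not share it as a group. Myh7, the slow myosin heavy chain, and Csrp3, a muscle LIM protein, had the order, and the other 13 of 15 genes of the slow-fibre list did not; these genes were chosen after their values were seen. Myoz2 and Ankrd2 were highest on KI replicate 97, at 1.02 and 1.12 above their WT means, but were above the WT means on KI replicate 94 too.

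**Figure D3:**
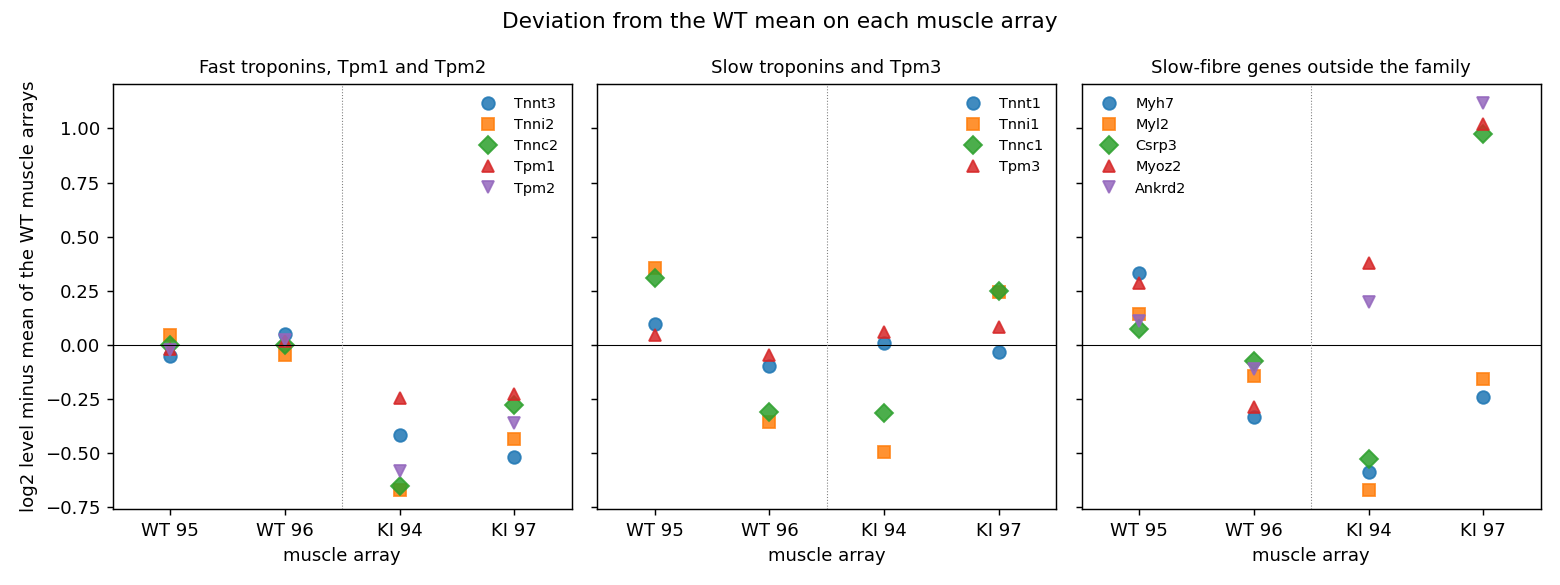
Log2 level of each gene on each of the 4 muscle arrays minus the mean of the WT muscle arrays. The fast troponins, Tpm1 and Tpm2 are on the left, the slow troponins and Tpm3 in the middle and 5 slow-fibre genes on the right. The dotted line parts WT from KI. The genes on the left lie between -0.67 and -0.23 on both KI arrays. Tnni1 and Tnnc1 are high on WT 95 and KI 97 and low on WT 96 and KI 94.

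Tpm3, the slow and non-muscle tropomyosin, depended on the probe set. By the brightest (10416940) it was at 8.45 and 8.47 on the KI and 8.43 and 8.34 on the WT muscle arrays (0.07 ± 0.10, SE; adjusted p = 0.736, limma; -0.00066 and -0.00017 after renewed quantile normalisation over all arrays and within tissues), and 1.43-fold lower in muscle than in the cerebellum. The next brightest (10493633), which lists 3 of the 13 transcript accessions of the first, was at 7.94 and 8.50 on the KI and 9.23 and 8.46 on the WT muscle arrays. By that probe set Tpm3 was higher in muscle than in the cerebellum (log2 difference 1.23; adjusted p = 0.000274, limma), and the direction between tissues was thus opposite. Its difference between genotypes in muscle was -0.63, with adjusted p = 0.240 in limma. WT replicate 95 and KI replicate 97 were its brightest muscle arrays. Unlike in Tnni1 and Tnnc1, KI replicate 97 (8.50) was nearly level with WT replicate 96 (8.46). The 2 remaining probe sets, 10549979 and 10560000, differed by -0.06 and -0.12 between the tissues and by -0.10 and -0.06 between the genotypes in muscle. No source used here says which forms of Tpm3 each probe set detects.

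**Figure D4:**
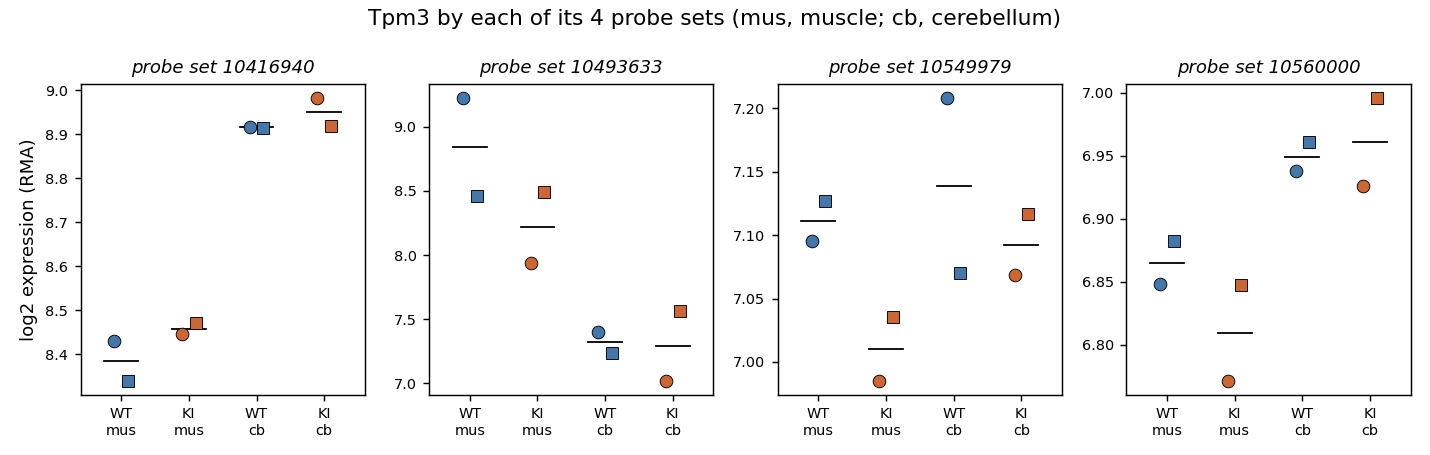
Log2 expression of Tpm3 on each array by each of its 4 probe sets, 1 panel per probe set with its own axis; symbols as in the plot of levels by array. Probe set 10416940 is higher in the cerebellum and probe set 10493633 is higher in muscle.

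In the cerebellum no member of the 9 tested was called, where 0.205% of 13641 genes were called in limma (unadjusted p under 0.05 in 1 member, against 5.33% of genes). Tnni2 was the member with the smallest p, and KI lay above WT, at 6.20 and 6.32 against 5.89 and 6.01 (0.31 ± 0.12, SE, interval 0.04 to 0.58; adjusted p = 0.857, limma). Tnni1 was at 5.63 and 5.69 in KI and at 5.29 and 5.32 in WT cerebellum (0.35 ± 0.26, SE; adjusted p = 0.998, limma). In Tnni1, Tnni2 and Tpm3, 3 members, the KI arrays were both above the WT arrays, as in 15.3% of genes, and in 0 members both were below, as in 20.0% of genes. The differences of Tnnt3 (-0.31 ± 0.20), Tnnc2 (0.00 ± 0.20), Tpm1 (-0.06 ± 0.14) and Tpm2 (0.10 ± 0.14) came with overlapping groups, KI replicate 94 being the lowest cerebellum array in each. That of Tnnt3 ran from -0.60 without WT cerebellum replicate 95 to -0.02 without WT cerebellum replicate 96. Tnnt1 was below the filter, at 4.30 and 4.63 in KI and 4.44 and 4.40 in WT cerebellum.

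The genotype difference was then compared between the tissues. None of the 10 members passed, where 0.143% of 14708 genes did in limma, and 2 had an unadjusted p under 0.05, against 13.8% of genes. Tnni2, lower on both KI arrays in muscle and higher on both in the cerebellum, had the largest difference, -0.86 ± 0.17 (SE, interval -1.24 to -0.48; adjusted p = 0.0979, limma). Over the alternatives its adjusted p ran from 0.0446, with trended and robust variances, to 0.350. For Tpm2 it was -0.57 ± 0.19 (SE; adjusted p = 0.266, limma). The comparison in muscle and the comparison between tissues share the muscle arrays.

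The other thin filament genes had differences in both directions. The list held 23 genes, the actins, nebulin and its relatives, the proteins that cap and lengthen the filament, and the paralogs Tnni3 and Tpm4, and all 23 were tested in muscle. None was called in limma, where 3.55% of all genes were, and 6 had an unadjusted p under 0.05, against 20.3% of genes. Of the 23, 16 had negative and 7 positive differences, and the median was -0.13 against 0.03 over all genes tested. KI lay wholly below WT in 6 and wholly above it in 6 of the 23, near the 19.9% and 30.3% of all genes. Acta1, the actin of adult skeletal muscle, was at -0.43 ± 0.12 (adjusted p = 0.0960) and Actc1, the cardiac and fetal actin, at -0.44 ± 0.14 (0.130). Kbtbd13, a ubiquitin ligase adaptor mutated in nemaline myopathy, was at -0.36 ± 0.14 (0.186) and Tmod4, which caps the pointed end of the filament in skeletal muscle, at -0.30 ± 0.17 (0.350; all log2 ± SE, limma).

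The 4 other genes named by the rule had positive differences. Klhl40, which stabilises nebulin, was at 0.81 ± 0.22 (adjusted p = 0.0847) and depended on the KI array, at 1.19 (0.0227, called) without KI muscle replicate 94 and 0.43 (0.263) without KI muscle replicate 97. Its relative Klhl41 was at 0.28 ± 0.13 (0.268), Nrap, an actin-binding protein of myofibril assembly, at 0.41 ± 0.12 (0.108) and Xirp1, an actin-binding repeat protein, at 0.42 ± 0.18 (0.244; log2 ± SE, limma). Xirp1 depended on the WT array, at 0.75 (adjusted p = 0.0436, called) when WT muscle replicate 95 was left out and at 0.085 (0.739) when 96 was. Tnni3, cardiac troponin I, was at 4.96 and 5.09 in KI and 5.15 and 5.20 in WT muscle (-0.15 ± 0.11; adjusted p = 0.472), near the 40th percentile of the arrays, which lay between 4.96 and 5.05. Tpm4, a tropomyosin of non-muscle cells, was at 8.65 and 9.08 in KI and 8.96 and 9.08 in WT muscle (-0.16 ± 0.15; adjusted p = 0.595, limma).

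**Figure D5:**
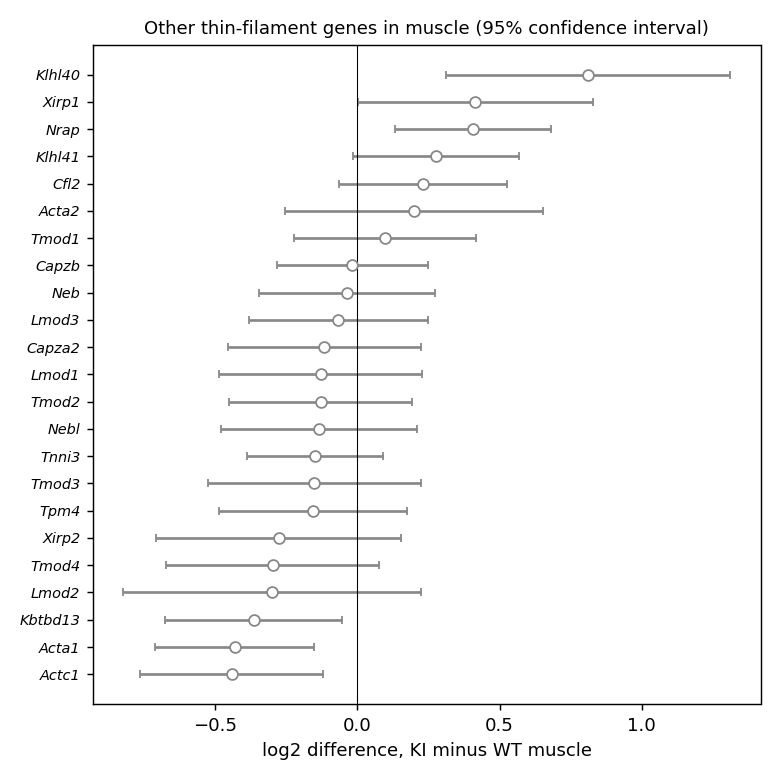
Log2 difference KI minus WT in muscle for the 23 other thin filament genes, sorted by size; points are limma estimates and bars 95% confidence intervals. Klhl40 at 0.81 is the highest, Acta1 and Actc1 are the lowest, and none was called.

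Fast-fibre genes outside the family also had negative differences. Of 15 tested, 4 fell and 0 rose, where 0.890% and 2.66% of all genes did, and 11 did not pass. All 15 differences were negative, with a median of -0.46 against 0.03 over all genes. KI muscle lay wholly below WT muscle in 13, as in 19.9% of all genes. Those called were Gpd1, glycerol-3-phosphate dehydrogenase (-0.78 ± 0.11, adjusted p = 0.0110), Casq1, the calcium store of fast fibres (-0.68 ± 0.12, 0.0199), Actn3, the fast-fibre actinin (-0.60 ± 0.13, 0.0372), and Pvalb, parvalbumin (-0.59 ± 0.13, 0.0439; log2 ± SE, limma). With 1 muscle array left out, the highest adjusted p was 0.0602 for Gpd1, 0.0897 for Casq1, 0.145 for Actn3 and 0.169 for Pvalb. This list was written with a fall of fast-fibre genes in these arrays already known and is no independent support.

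The slow-fibre list went in both directions. Of 15 genes tested, 2 rose and 1 fell, against the same 2.66% and 0.890% of all genes, and the median was -0.01. Casq2, the slow and cardiac calsequestrin, rose by 1.70 ± 0.16 (adjusted p = 0.00158, limma). Sln, sarcolipin, an inhibitor of the calcium pump, rose by 0.91 ± 0.18 (adjusted p = 0.0286, limma). Sln was at 5.35 and 5.87 on the KI and at 4.85 and 4.55 on the WT muscle arrays. Both WT values lay below the filter, between 4.96 and 5.05 over the arrays, so Sln was tested through its KI arrays. Its call was lost in 7 of the 17 alternatives run for it. Its difference was between 0.765 and 1.06 in those with 1 array left out. Myl3, the slow and ventricular essential light chain, fell by 2.35 ± 0.30 (0.00638), and Mb, myoglobin, was at -0.98 ± 0.24 (0.0579; log2 ± SE, limma). Mb was at -1.40 (adjusted p = 0.0142, called) without KI muscle replicate 97 and at -0.56 (0.173) without KI muscle replicate 94, and Myl3 missed the threshold when every probe set was tested (0.0532). Of 9 tested genes of embryonic and regenerating fibres, 0 rose and 1 fell, against the same 2.66% and 0.890% of all genes. Their differences were positive in 4 and negative in 5, with a median of -0.03. The gene called was Myl4, the atrial and embryonic light chain, which fell by 1.22 ± 0.16 (SE; adjusted p = 0.00638, limma). Actc1 is given above, and Ncam1, a cell adhesion molecule of immature and denervated fibres, was at 0.38 ± 0.13 (0.155; limma).

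Among 22 tested regulators of fast and slow genes, 3 rose and 0 fell, where 2.66% and 0.890% of all genes did, with a median difference of 0.05. Prox1, a homeobox factor needed for slow-fibre features, rose by 0.63 ± 0.11 (adjusted p = 0.0229), Tead4, which binds the MCAT element, by 0.52 ± 0.11 (0.0400), and Vgll3, a cofactor of TEAD proteins, by 0.45 ± 0.10 (0.0438; log2 ± SE, limma). Prox1 was at 5.56 and 5.60 on the KI and at 4.85 and 5.05 on the WT muscle arrays. WT replicate 95 lay below the filter, between 4.96 and 5.05 over the arrays, and WT replicate 96 lay near it. Prox1 was thus tested through its KI arrays, as Sln was. Prox1 lost its call without WT muscle replicate 95 or either KI muscle array (0.0879 to 0.128), and Tead4 and Vgll3 lost theirs without any 1 of the 8 arrays (0.0528 to 0.182). Sox6, which represses slow-fibre genes in fast fibres, was at -0.49 ± 0.11 (0.0534) and passed in 5 alternatives at the same threshold, among them both new quantile normalisations (0.0387 and 0.0339). Of 15 tested genes of a general list of splicing factors none was called in limma, where 3.55% of all genes were. At an unadjusted p under 0.05 there were 3 of the 15, near the 20.3% of all genes. Rbfox1 was at -0.51 ± 0.13 (adjusted p = 0.0672), Mbnl1 at -0.40 ± 0.11 (0.0772), Ptbp2 at 0.29 ± 0.10 (0.150) and Rbfox2 at 0.25 ± 0.12 (0.286). The values here are 1 per gene and hold no measure of exon use.

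Markers of other cells in the muscle samples were set beside the lower fast genes. Macrophage markers had positive differences in 6 of 7 genes, as did 7665 of the 13933 genes tested, and none was called. At an unadjusted p under 0.05 in limma there were 4, against 20.3% of genes. Trem2, 1 of these 4, was lower in KI (-0.33). The mean level of the 7 markers was 6.30 and 6.15 on the KI arrays against 6.003 and 5.966 on the WT arrays. The mean of 7 fibroblast markers was 8.93 and 8.36 in KI and 8.42 and 8.53 in WT muscle. The 9 skeletal fibre markers averaged 11.25 and 11.38 in KI and 11.60 and 11.69 in WT, with a median difference of -0.34. Of these 9, 7 had negative differences, as did 6268 of the 13933 genes tested, and none was called. At an unadjusted p under 0.05 in limma there were 4, against 20.3% of genes. KI lay wholly below WT in 6 and wholly above it in 1, against 19.9% and 30.3% of genes. The 9 differences ranged from -0.98 for Mb to 0.28 for Des, desmin. Acta1, Myh4, Mylpf and Mb also belong to the lists above, so these markers are no separate support. The 9 smooth muscle markers, listed since vessel walls also make Tpm1 and Tpm2, averaged 6.88 and 6.94 in KI and 6.87 and 6.83 in WT, and of the 8 tested none was called (1 at an unadjusted p under 0.05). Cardiac markers averaged 5.39 and 5.36 in KI and 5.49 and 5.46 in WT. The part of these cells in the result was not tested. In whole tissue, fewer fast fibres and less RNA of a gene per fibre cannot be told apart.

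By profile over the 8 arrays, which is set mostly by the tissue, the genes nearest to Tnni2 were Tcap, the titin cap protein (distance 0.39 between centred profiles, r = 0.999), Mlf1 (0.43, r = 0.998) and Slc2a4, the insulin-responsive glucose transporter (0.56, r = 0.999). Nearest to Tpm2 was Tnnc2 (distance 0.28, r = 0.9994), followed by Cmya5, a costamere protein (0.42, r = 0.999), and Fabp4, a fatty acid-binding protein (0.43, r = 0.9996). These are descriptions over 8 arrays that share tissue and array effects. For Tnnc1 the nearest gene was Phox2a, a homeobox factor of autonomic neurons (distance 0.25, r = 0.965), named after its value was seen, and no slow-fibre gene was among the 3 nearest.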

How the data were processed

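Total RNA was measured on 8 Affymetrix Mouse Gene 1.0 ST arrays, 1 colour each. Per the submitters' processing notes, the authors used GCOS and RMA to make the deposited log2 expression values. RMA corrects background, equalises the arrays' distributions and summarises probes, so a shift common to a whole array is removed. The sources used here name no version and no build, nor the set of arrays that RMA normalised jointly. Of 35556 probe sets, 21789 carried 1 gene symbol in the platform annotation and named 19938 genes, and the probe set with the highest mean over the 8 arrays stood for a gene. One limma 3.58.1 model in R 4.3.3 held a mean for each of the 4 groups, with eBayes moderation (4 residual and 5.30 prior degrees of freedom), and gave KI minus WT in each tissue, the difference of these effects, and the tissue contrast. P-values were adjusted over the 13933, 13641, 14708 and 14708 genes tested. With 2 arrays against 2, an exact permutation test of a single value cannot go below a two-sided p of 0.3333, so none is given. The fit was tested on simulated data.

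The members and the 6 pathway and 15 marker lists were chosen with earlier results of these data known. The text names all members, the paralogs Tnni3 and Tpm4, and by smallest unadjusted p in muscle 8 genes of the thin filament list, 4 of each of the fast, slow, regulator and splicing lists and 3 of the perinatal list. For likeness it names the 3 genes nearest to Tnni2 and to Tpm2. Other genes belong to marker lists or are described in the text as picked with their values in view. Likeness is the Euclidean distance between log2 profiles, each centred on its mean. The replicate numbers recur between tissues, and the difference between a genotype's arrays correlated between tissues at 0.0566 (KI) and -0.0965 (WT), so samples were not paired. Alternatives changed the filter, the probe set rule, the normalisation, the variance moderation, the threshold and the arrays in the fit.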

Additional observations from a re-analysis of the deposited data

How the results depend on the processing

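With 2 arrays per group, the number of arrays limits every call. The 5 tissue calls held in all 21 alternatives and the cerebellum had 0 called members in all 20. The muscle count of 1 member was 0 with no filter on low values, with every probe set tested, with normal scores of ranks, with muscle arrays alone, and without any 1 array (0 in each), and 2 at an adjusted p under 0.1, where Tpm2 joined. For the difference between tissues 1 member passed with trended, robust variances or at an adjusted p under 0.1. Over all genes, muscle had 495 calls, against 246 with no filter, 61 with every probe set, 279 with normal scores, 155 with muscle arrays alone, 995 at an adjusted p under 0.1 and 108 to 393 with 1 array left out. The cerebellum had 28, against 18 with no filter, 5 with every probe set and 3 to 29 with 1 array left out. The difference had 21, against 3 with no filter, 38 with a filter at the 60th percentile, 34 with median centring, 63 with trended, robust variances, 108 at an adjusted p under 0.1, 0 with every probe set or normal scores, and 0 to 16 with 1 array left out. A replicate block, taken as random (consensus correlation -0.0733), gave Tnni2 in muscle an adjusted p of 0.0419 in limma and changed no member's call. The numbers were not shown to pair the arrays. Sign changes were seen in members that were not called. With renewed quantile normalisation over all arrays, within tissues, and with normal scores, Tnnt1 in muscle was at 0.0306, 0.0293 and 0.0354 and Tnnc2 in the cerebellum at -0.00409, -0.00306 and -0.00977. Tnnt1 for the difference was at 0.00206 over all arrays and 0.0037 with normal scores, and Tnnt2 in the cerebellum at -0.00037 over all arrays and -0.00121 within tissues. Tnnt3 for the difference was at 0.0467 with normal scores and Tnnc1 at -0.0334 with median centring. Tpm3 in muscle was at -0.00066, -0.00017 and -0.0003 with both quantile settings and median centring, and for the difference at -0.0614, -0.0584 and -0.0589, and -0.0553 with normal scores. By the mean of its probe sets Tpm3 was at -0.178 in muscle, -0.00758 in the cerebellum, -0.170 for the difference and 0.136 for tissue. By its next brightest probe set, an alternative chosen after seeing the data, it was at -0.628, -0.0300, -0.598 and 1.23. The cause of these changes was not tested. With 1 array left out, the range in muscle was -0.108 to 0.0841 for Tnnt1, -0.493 to 0.244 for Tnni1, -0.342 to 0.274 for Tnnc1 and -0.372 to 0.0590 for Tpm4. Values that were not called and kept their sign also moved in muscle, over -0.216 to -0.0825 for Tnni3, -0.591 to -0.292 for Actc1, -0.556 to -0.173 for Kbtbd13, 0.140 to 0.370 for Rbfox2 and 0.229 to 0.540 for Ncam1. In the cerebellum it was -0.0408 to 0.0757 for Tnnt2, -0.213 to 0.0177 for Tnnc1, -0.273 to 0.278 for Tnnc2, -0.253 to 0.140 for Tpm1 and -0.0720 to 0.268 for Tpm2. For the difference it was -0.225 to 0.103 for Tnnt1, -0.451 to 0.134 for Tnnt3, -0.244 to 0.372 for Tnnc1, -0.375 to 0.0176 for Tpm1 and -0.00679 to 0.0840 for Tpm3.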
